A study of Mus musculus with 8 samples.

Results

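Complexes II to V of the mitochondrial respiratory chain were followed through their nuclear-encoded genes in innate lymphoid progenitors sorted from mouse fetal liver. Members were taken by gene name: those starting with Sdh, Uqcr, Cox4, Cox5, Cox6, Cox7, Cox8 or Atp5, with Cyc1 and Cycs added and with pseudogenes, the Sdhaf assembly factors and Cox6a2 left out. This gave 48 of the 34745 genes in the table: 4 of complex II, 9 of complex III, 1 for cytochrome c, 17 of complex IV and 17 of complex V. A minimum count left 44 of them among the 13436 genes tested, and the members not tested were Atp5g2, Cox7b2, Cox8b and Cox8c. The rule used names only, though it was set with earlier results of these data known. A name is also not a proof of function: Cox7a2l, Atp5s and Atp5sl carry family names without being standard subunits and are called related members here.

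All cells were live, Lin–, CD45+ and CD127+ and came from wild-type B6 mice that had no treatment. Common lymphoid progenitors (CLP, 3 libraries) were sorted as Flt3+CD25–. Innate lymphoid cell precursors (ILCP, 3 libraries) were Flt3–α4β7+CD25– with PD-1 and without CD94, and the ILC1/3P population (2 libraries) had the same gate with CD94 and without PD-1. The labels give no embryonic day. An age of 6 to 8 weeks stands in their cell type field and is not explained for fetal tissue. They do not say whether libraries of a group came from separate animals, so p-values measure the spread between these libraries, which may be technical.

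Complex II (succinate dehydrogenase) feeds electrons from the citric acid cycle into the membrane quinone pool. Complex III passes them to cytochrome c, complex IV passes them from there to oxygen, and complex V (ATP synthase) uses the proton gradient built by complexes I, III and IV to make ATP. All subunits of complex II are nuclear-encoded, while complexes III, IV and V also hold subunits encoded in mitochondrial DNA and join their catalytic subunits to many small nuclear-encoded ones. Nuclear respiratory factor 1 (NRF1), the ETS-family factor GABP and YY1 are known regulators of many of these nuclear genes.

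The upstream bases of 4 members that were higher in ILC1/3P libraries are shown first, 1 each from complex III, cytochrome c, complex IV and complex V, because letters recognized by these factors lie there. Each is the 250 bases before an annotated start on the minus strand, from RefSeq on GRCm38.p6, written 5′ to 3′. They are chr10:80406822-80407071 for Uqcr11, chr6:50566570-50566819 for Cycs, chr5:115348959-115349208 for Cox6a1 and chr2:174464102-174464351 for Atp5e. Capitals mark ETS letters in Uqcr11, Cox6a1 and Atp5e and NRF1 letters in Cycs and Cox6a1, and the last 4 capitals of Uqcr11 open NRF1 core letters that run across the start.
Uqcr11: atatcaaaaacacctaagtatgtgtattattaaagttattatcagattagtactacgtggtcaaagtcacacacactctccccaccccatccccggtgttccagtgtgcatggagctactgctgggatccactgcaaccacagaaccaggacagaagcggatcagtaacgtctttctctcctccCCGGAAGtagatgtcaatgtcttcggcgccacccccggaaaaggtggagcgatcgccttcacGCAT
Cycs: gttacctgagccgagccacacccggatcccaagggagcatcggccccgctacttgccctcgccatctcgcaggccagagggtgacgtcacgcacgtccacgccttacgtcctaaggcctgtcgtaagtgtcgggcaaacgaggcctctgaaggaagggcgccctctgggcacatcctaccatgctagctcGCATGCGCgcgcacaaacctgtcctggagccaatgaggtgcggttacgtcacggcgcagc
Cox6a1: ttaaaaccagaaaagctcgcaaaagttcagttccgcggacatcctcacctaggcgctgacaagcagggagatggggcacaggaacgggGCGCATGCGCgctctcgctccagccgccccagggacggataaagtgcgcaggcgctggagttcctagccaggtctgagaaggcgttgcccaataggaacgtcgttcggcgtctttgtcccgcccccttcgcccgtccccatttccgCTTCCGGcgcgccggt
Atp5e: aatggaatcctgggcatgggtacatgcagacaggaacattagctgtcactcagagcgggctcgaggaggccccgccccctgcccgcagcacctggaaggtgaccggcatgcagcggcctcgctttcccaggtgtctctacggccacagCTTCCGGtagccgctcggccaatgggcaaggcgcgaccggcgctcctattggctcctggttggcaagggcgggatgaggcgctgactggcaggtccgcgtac
The ETS letters began 66 bases before the start in Uqcr11, 16 in Cox6a1 and 102 in Atp5e, on the reverse strand in the latter pair. NRF1 letters began 60 bases before the start in Cycs and 162 in Cox6a1. By GENCODE M21, 9, 23 and 4 of these bases lie in an exon of Uqcr11, Cox6a1 and Atp5e themselves. Of the Cox6a1 window, 31 lie in exons of the noncoding RNA gene Gm42903 on the opposite strand. Of the Cycs window, 177 lie in exons of the antisense RNA gene 5430402O13Rik.

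Promoter windows of 300 bases (250 before and 50 after the start) were matched for 38 of 48 members and searched on both strands. The ETS letters CCGGAAG were found in 12 of the 38 (31.6%), against 9.93% of 27025 genes. NRF1 core letters, GCATGCGC, were found in 8 members (21.1%), against 3.05% of all genes, and these were Sdhb, Uqcrc1, Uqcr11, Cycs, Cox6a1, Atp5g2, Atp5k and Atp5l. The full NRF1 palindrome, which holds the core, was in Uqcrc1, Cox6a1, Atp5g2 and Atp5k (10.5% against 1.07%). YY1 letters, AAGATGGCG, were in 3 members (7.90% against 1.64%), while GGGCGG was as frequent in members (39.5%) as in all genes (38.2%). TATAAA was in 7.90% of members against 15.7% of all genes, and CCAAT in 57.9% against 41.1%. A match of letters is a description of the window and not a binding site.

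The libraries held 4991939 to 8082476 counts. CPM below are counts per 1000000 after scaling by the trimmed mean of M values (TMM), whose factors were 1.05 to 1.23 in CLP and ILCP but 0.753 and 0.671 in ILC1/3P. The 50 most abundant genes took 12.9% to 16.0% of counts in CLP libraries, at least 15.1% in ILCP and 24.8% and 29.2% in ILC1/3P. Genes with under 600 coding bases took 25.5% to 34.8% of counts in CLP and ILCP and 43.8% and 49.4% in ILC1/3P, a difference that bears on short members and is taken up with each count below. Most gate genes followed the labels. Flt3 stood at 401 CPM or more in CLP and at or near 0 in the others, Pdcd1 (PD-1) at 44.6 to 107 CPM in ILCP against 10.2 and 17.5 CPM in ILC1/3P, and Klrd1 (CD94) at 1184 and 1629 CPM in ILC1/3P against 71.5 CPM or less elsewhere. Il2ra (CD25), though every gate was CD25–, had 6.26, 9.26 and 7.18 CPM in ILCP and 0.823 and 3.78 CPM in ILC1/3P, beside 0 in CLP. Of 5 CLP markers, Rag1, Cd34, Flt3 and Dntt were at 0 in both ILC1/3P libraries, and the ILCP markers Pdcd1 and Zbtb16 were at 0 in all CLP libraries. The 6 ILCP markers summed to 147 to 294 CPM in CLP, 5589 to 5912 CPM in ILCP and more, 10258 to 14543 CPM, in ILC1/3P. The 6 ILC1/3P markers summed to 191 to 312 CPM, 4220 to 5026 CPM and 12824 to 18010 CPM. Of the α4β7 genes, Itga4 was lower in ILC1/3P (169 and 100 CPM) than in ILCP (419, 490 and 417 CPM), and Itgb7 overlapped. Other markers moved with the groups too. Summed B lineage markers ranged over 2453 to 3292 CPM in CLP, 152 to 191 CPM in ILCP and 129 to 168 CPM in ILC1/3P. Myeloid markers ranged over 693 to 921 CPM, 12.7 to 21.8 CPM and 45.9 to 81.1 CPM, and megakaryocyte and mast cell markers over 0.907 to 2.82 CPM, 551 to 679 CPM and up to 275 CPM. Erythroid markers (4.12 to 27.2 CPM) and hepatocyte markers (7.71 to 28.0 CPM) were low in all 8 libraries, and endothelial or stromal markers were at 52.8 to 124 CPM. The part of these other cells in the results was not tested. In bulk libraries, fewer cells of a type and less RNA per cell cannot be told apart.

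ILC1/3P libraries differed most. Against CLP, 24 of the 44 tested members were higher and 6 were lower at an adjusted p under 0.05 (edgeR quasi-likelihood test, Benjamini-Hochberg adjustment over all tested genes), where 11.8% of all genes were called higher and 11.7% lower (23.5% in either direction). Against ILCP, 24 were higher and 3 lower, where 8.06% of all genes were called higher and 8.25% lower (16.3% in either direction). The median log2 fold change of the tested members was 1.46 against CLP and 1.23 against ILCP, beside -0.25 and -0.23 over all tested genes. Both comparisons use the same ILC1/3P libraries. The members that fell against CLP were Sdha, Uqcrc1, Cox7a2l, Atp5a1, Atp5b and Atp5sl, and those that fell against ILCP were Sdha, Uqcrc1 and Atp5a1. Between ILCP and CLP 2 members were called, Uqcrq (higher) and Cox7a2l (lower), where 3.91% of all genes were called higher and 2.87% lower (6.79% in either direction). Groups whose libraries did not overlap were common over all tested genes. For ILC1/3P against CLP, 23.3% of genes lay apart on the higher side and 29.1% on the lower, beside 31 and 9 members. Against ILCP the shares were 20.2% and 24.7%, beside 30 and 5 members. From CLP to ILCP they were 14.1% and 14.0%, beside 4 members each way.

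**Figure D1:**
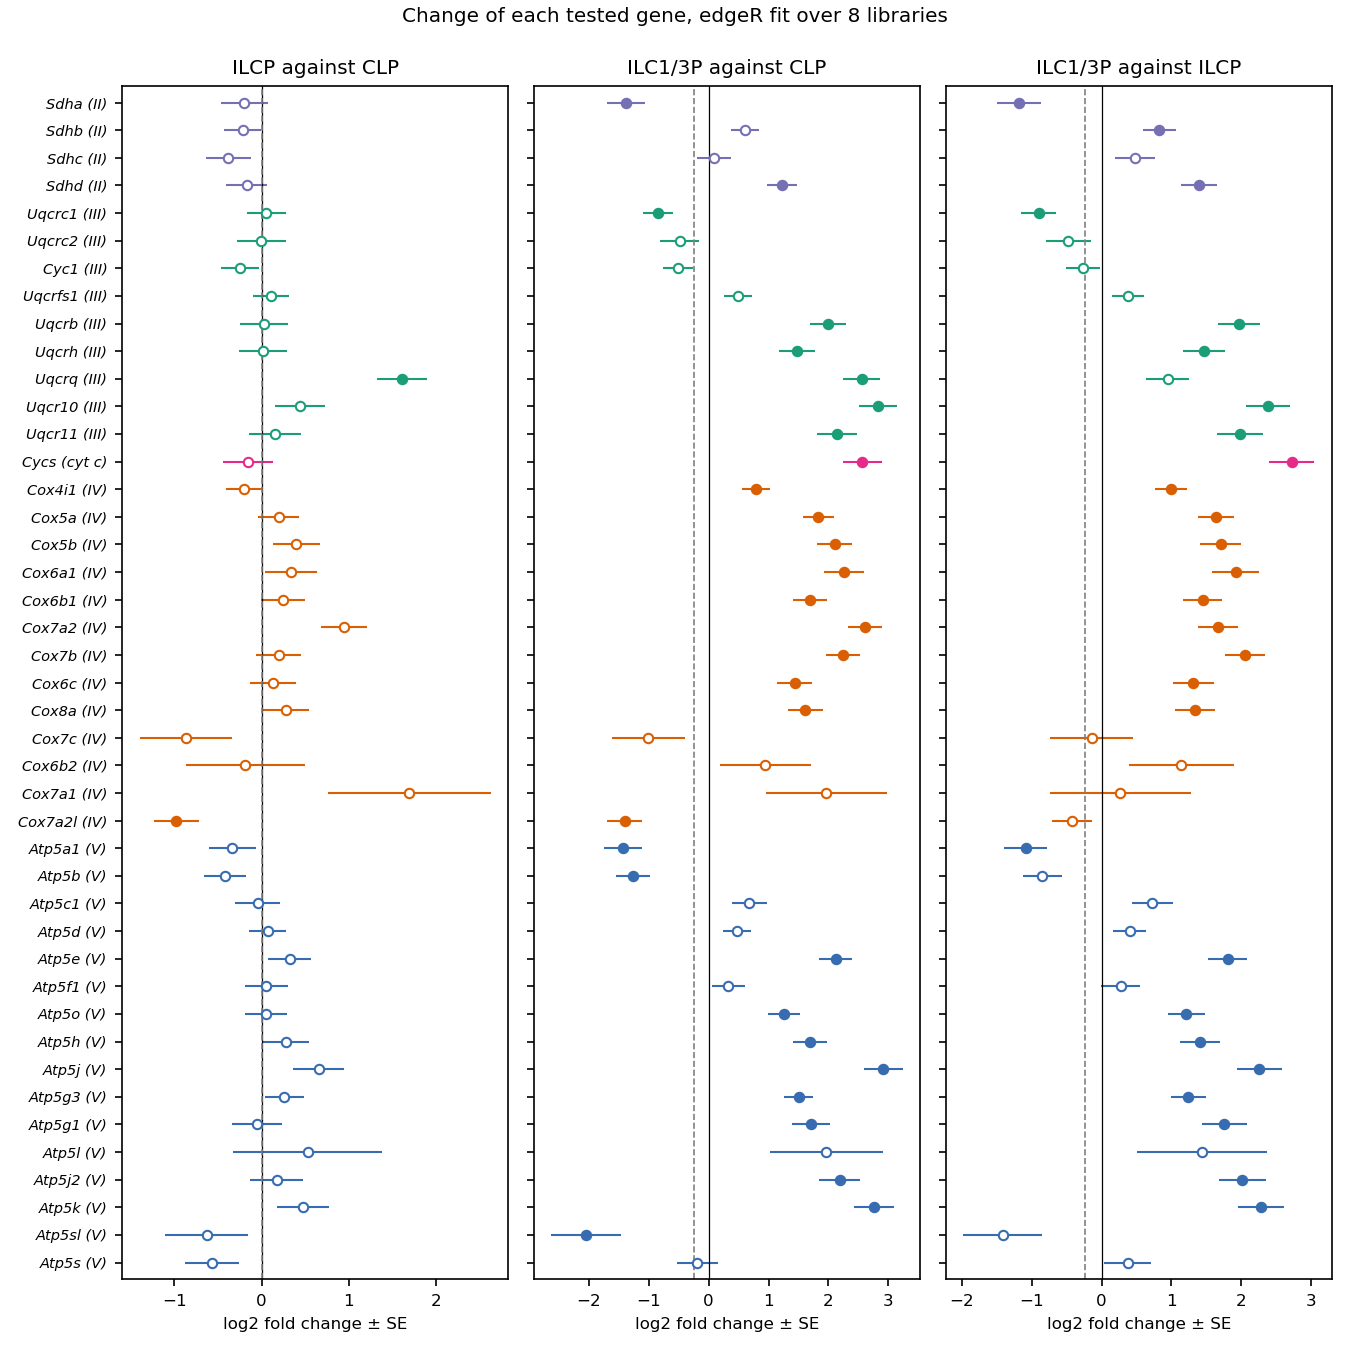
Fitted log2 fold changes with standard errors for the tested members, by complex, in the 3 comparisons. Filled points passed the test, open points did not, and the dashed line is the median of all tested genes. Cox4i2 was not plotted because both ILC1/3P libraries were at 0. In the panels with ILC1/3P most small subunits lie to the right of that line while Sdha, Uqcrc1 and Atp5a1 lie to the left.

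The size of these counts depended on how libraries were scaled. With scaling to total counts alone, the median of all tested genes moved from -0.25 to -0.93 against CLP. Relative to the median of all genes, the members' median was then 1.72 higher against CLP, beside 1.71 with TMM. The split became 21 higher and 8 lower against CLP, where 7.04% and 20.9% of all genes were called, and 16 higher and 8 lower against ILCP, where 3.53% and 15.9% were called. Against CLP the calls lost with that scaling were Sdhd (0.57, adjusted p = 0.0676), Atp5o (0.59, adjusted p = 0.0648) and Cox4i1 (0.11, adjusted p = 0.708), and Cyc1 (-1.20) and Uqcrc2 (-1.12) became lower. Against ILCP the calls lost were Sdhb, Uqcrh, Cox4i1, Cox6c, Cox8a, Atp5g3, Atp5h and Atp5o, with Cyc1, Uqcrc2, Cox7a2l, Atp5b and Atp5sl becoming lower.

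Succinate dehydrogenase split within itself in ILC1/3P: its membrane anchor Sdhd rose and its catalytic flavoprotein Sdha fell. Sdhd (chr9:50596338-50603849) stood at 651, 1054 and 947 CPM in CLP, 665, 889.8 and 799 CPM in ILCP, and 2105 and 2021 CPM in ILC1/3P. Both ILC1/3P libraries lay above every other library, with a log2 fold change of 1.22 ± 0.26 (SE) against CLP (adjusted p = 0.00492, but 0.0676 with total-count scaling) and 1.39 ± 0.26 against ILCP (adjusted p = 0.00412). Sdha (chr13:74322254-74350280), the subunit that oxidizes succinate, stood at 292, 164 and 177 CPM in CLP, 223, 162 and 166 CPM in ILCP, and 78.3 and 84.1 CPM in ILC1/3P. Its ILC1/3P libraries were the lowest of the 8, 2.60-fold lower than CLP (log2 -1.38 ± 0.32, adjusted p = 0.00878) and 2.26-fold lower than ILCP (-1.18 ± 0.32, adjusted p = 0.0262). The call against ILCP was lost without ILCP replicate 1 or 3 or without either ILC1/3P library. The iron-sulfur subunit Sdhb stood at 789, 882 and 931 CPM in CLP, 627, 904 and 704 CPM in ILCP, and 1237 and 1409.7 CPM in ILC1/3P. Its ILC1/3P libraries did not overlap the others, which was common over all genes as given above. Sdhb passed the test only against ILCP (0.83 ± 0.23, adjusted p = 0.0331, lost when ILCP replicate 1 or 3 or either ILC1/3P library was left out) and not against CLP (0.61 ± 0.24, adjusted p = 0.0841). The other anchor, Sdhc, overlapped between groups at 269, 328 and 310.0 CPM in CLP, 208, 186 and 303 CPM in ILCP, and 252 and 393 CPM in ILC1/3P (0.09 ± 0.29 against CLP, adjusted p = 0.855). The median of the 4 members against CLP was 0.35 with TMM and -0.33 with total-count scaling, so the complex as a whole has no direction that holds under both.

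In complex III the calls split by subunit size. All 5 small subunits rose against CLP and 4 of 5 rose against ILCP, while of the 4 larger ones (Uqcrc1, Uqcrc2, Uqcrfs1 and Cyc1) none rose and Uqcrc1 fell in both comparisons. Uqcr10 (chr11:4701973-4704342), a small membrane subunit, stood at 179, 251 and 219 CPM in CLP, 200.2, 344 and 336 CPM in ILCP, and 1122 and 1947 CPM in ILC1/3P. It was 7.10-fold higher in ILC1/3P than in CLP (log2 2.83 ± 0.32, adjusted p = 0.000118) and 5.23-fold higher than in ILCP (2.39 ± 0.32, adjusted p = 0.000872). Uqcrb, which contacts the quinone-binding part of the complex, stood at 127, 204 and 215 CPM in CLP, 156, 224 and 177 CPM in ILCP, and 569.6 and 878 CPM in ILC1/3P. Every ILC1/3P value exceeded every value of the other groups (1.99 ± 0.30 against CLP, adjusted p = 0.000686, and 1.96 ± 0.30 against ILCP, adjusted p = 0.00175). Uqcr11 followed the same order, with 103, 146 and 116 CPM in CLP, 97.4, 193 and 116 CPM in ILCP, and 409 and 661 CPM in ILC1/3P (2.14 ± 0.33 against CLP, adjusted p = 0.000852). The hinge protein gene Uqcrh was 2.79-fold higher in ILC1/3P than in CLP (1.48 ± 0.30, adjusted p = 0.00426).

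Uqcrq, a small subunit near the cytochrome b core, was called higher in ILCP than in CLP. It lies at chr11:53427922-53430831 and stood at 145, 205 and 277 CPM in CLP, 507, 809 and 592 CPM in ILCP, and 1072 and 1383 CPM in ILC1/3P, so that the 3 groups did not overlap. The rise from CLP to ILCP was 3.04-fold (log2 1.61 ± 0.28, adjusted p = 0.00456) and passed the test whichever library was left out, with a highest adjusted p of 0.0331. Against CLP, ILC1/3P was 5.88-fold higher (2.55 ± 0.31, adjusted p = 0.000177), while against ILCP it did not pass (0.95 ± 0.31, adjusted p = 0.0562). The ratio of Uqcrq to Uqcrh counts, which does not depend on scaling between libraries, was 1.995, 1.984 and 2.072 in CLP, 5.77, 6.63 and 5.72 in ILCP, and 4.32 and 4.22 in ILC1/3P. That pair was chosen after its values were seen.

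Among the large subunits, core protein Uqcrc1 stood at 832, 664 and 666 CPM in CLP, 859, 776 and 608 CPM in ILCP, and 449.7 and 350.3 CPM in ILC1/3P. It was 1.80-fold lower in ILC1/3P than in CLP (-0.85 ± 0.26, adjusted p = 0.0319) and 1.87-fold lower than in ILCP (-0.90 ± 0.26, adjusted p = 0.0332). These calls were lost when any CLP library or ILC1/3P replicate 2 was left out in the first case, and ILCP replicate 1 or 2 or ILC1/3P replicate 2 in the second. The other core protein gene, Uqcrc2, was not called at 429, 518 and 649.9 CPM in CLP and 478 and 285 CPM in ILC1/3P (-0.48 ± 0.32, adjusted p = 0.308). The electron-carrying subunits were not called against CLP either: the Rieske protein gene Uqcrfs1 had a log2 fold change of 0.49 ± 0.23 (adjusted p = 0.143) and the cytochrome c1 gene Cyc1 of -0.52 ± 0.25 (adjusted p = 0.155).

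Cytochrome c, the soluble carrier between complexes III and IV, rose with the small subunits. Cycs stood at 32.2, 49.9 and 43.1 CPM in CLP, 28.7, 47.7 and 35.6 CPM in ILCP, and 228 and 267 CPM in ILC1/3P. It was 5.93-fold higher in ILC1/3P than in CLP (2.57 ± 0.32, adjusted p = 0.000207) and 6.62-fold higher than in ILCP (2.73 ± 0.32, adjusted p = 0.000462), whereas ILCP and CLP overlapped (-0.16 ± 0.29, adjusted p = 0.874).

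Calls in cytochrome c oxidase ran in 1 direction among the common subunits: of 10, 9 rose in ILC1/3P against CLP and the same number against ILCP, and none fell. The exception in both was Cox7c, which has an annotated copy described below. Cox7a2, the common subunit 7A, stood at 188, 215 and 304 CPM in CLP, 371, 589 and 403 CPM in ILCP, and 1278 and 1604 CPM in ILC1/3P. It was 6.11-fold higher in ILC1/3P than in CLP (2.61 ± 0.29, adjusted p = 0.000112), with no overlap between any of the groups. Cox7b was at 156, 199 and 243 CPM in CLP, 183, 286 and 214 CPM in ILCP, and 803 and 1088 CPM in ILC1/3P (2.25 ± 0.28 against CLP, adjusted p = 0.000215, and 2.05 ± 0.28 against ILCP, adjusted p = 0.00106). Cox5a and Cox5b, which face the mitochondrial matrix, were also higher in both ILC1/3P libraries than in any other. Cox5a stood at 312, 437 and 472 CPM in CLP, 412, 495 and 490.3 CPM in ILCP, and 1233 and 1665 CPM in ILC1/3P (1.83 ± 0.26 against CLP, adjusted p = 0.000397, and 1.64 ± 0.25 against ILCP, adjusted p = 0.00186). Cox5b stood at 109, 141 and 213 CPM in CLP, 169.9, 245 and 196 CPM in ILCP, and 622 and 704 CPM in ILC1/3P (2.10 ± 0.30 against CLP, adjusted p = 0.000454). Among the rest, Cox6a1 reached 1447 and 2833 CPM in ILC1/3P from 335 to 562 CPM in CLP, and Cox6c 462 and 614 CPM from 158 to 250.4 CPM.

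Among members with a common and a tissue-restricted isoform of the same subunit, the calls were all in the common one. The tissue-restricted members stood at 41.6 CPM or less in every library. That limit does not cover Cox6a2, the paralog of Cox6a1, which the naming rule left out. With total-count scaling, Cox6a2 stood at 323, 375 and 492 CPM in CLP. In ILCP it stood at 1.16, 0.724 and 0.311 CPM, and in ILC1/3P at 0.866 and 0 CPM. Cox4i1, the common subunit 4, stood at 485, 547 and 605 CPM in CLP, 420.2, 506 and 495 CPM in ILCP, and 817 and 1065 CPM in ILC1/3P (0.79 ± 0.23 against CLP, adjusted p = 0.0286). It lost that call without CLP replicate 1 or 2 or ILC1/3P replicate 2. The lung isoform Cox4i2 stood at 0.567, 4.05 and 2.67 CPM in CLP, 0.284, 0 and 1.27 CPM in ILCP, and 0 in both ILC1/3P libraries, where a count of 0 allows up to 0.49 and 0.71 CPM (3 counts per library). It was not called (adjusted p = 0.137). Cox6b1 rose to 1551 and 1527 CPM in ILC1/3P from 355, 449 and 623 CPM in CLP (1.69 ± 0.28, adjusted p = 0.00125), with 455, 695 and 539 CPM in ILCP. Its testis isoform Cox6b2 stood at 7.03, 11.8 and 19.6 CPM in CLP, 11.1, 8.57 and 13.9 CPM in ILCP, and 7.9 and 41.6 CPM in ILC1/3P, with the ILC1/3P libraries near the lowest and at the highest value of the 8 (0.95 ± 0.75 against CLP, adjusted p = 0.392). For subunit 8, Cox8a stood at 307, 397 and 548 CPM in CLP, 389, 611 and 521 CPM in ILCP, and 1346 and 1211 CPM in ILC1/3P (1.62 ± 0.29 against CLP, adjusted p = 0.00194), while Cox8b and Cox8c had no count in any library. Cox7b2, the testis isoform of subunit 7B, had counts in CLP replicate 2 only (0.736 CPM).

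The subunit 7A family moved in opposite directions. Cox7a2l (chr17:83501919-83514333), a related member and not a standard subunit, stood at 328, 524 and 385 CPM in CLP, 178, 244 and 206 CPM in ILCP, and 185 and 127 CPM in ILC1/3P. It was 1.97-fold lower in ILCP than in CLP (-0.98 ± 0.26, adjusted p = 0.0410) and 2.64-fold lower in ILC1/3P than in CLP (-1.40 ± 0.30, adjusted p = 0.00533). The first call was lost without CLP replicate 2 or 3 or without any ILCP library, with an adjusted p of up to 0.183, and the second without ILC1/3P replicate 2 (0.0526). ILCP and ILC1/3P overlapped (-0.42 ± 0.29, adjusted p = 0.353). Cox7a2 had a log2 fold change of 0.95 ± 0.26 from CLP to ILCP, where its libraries did not overlap but the test did not pass (adjusted p = 0.0544). It passed with total-count scaling (0.0355), without the filter (0.00772), with DESeq2 (0.00976), with the replicate block (0.0466), with FPKM (0.017) and with either length fit (0.0308 and 0.0303), while the replicate block lost the call of Cox7a2l (0.0688). Within each library, the ratio of Cox7a2 to Cox7a2l counts was 0.573, 0.411 and 0.790 in CLP, 2.08, 2.42 and 1.96 in ILCP, and 6.92 and 12.6 in ILC1/3P. The ratio thus put the groups in 1 order without overlap, on a scale that does not depend on the normalization of libraries. The muscle isoform Cox7a1 stood at 1.93, 1.29 and 2.37 CPM in CLP, 6.26, 7.32 and 4.65 CPM in ILCP, and 7.57 and 7.09 CPM in ILC1/3P. Each ILCP and ILC1/3P value exceeded those in CLP, yet at these low counts it was called in no comparison (1.69 ± 0.94 from CLP to ILCP, adjusted p = 0.368, and 1.96 ± 1.01 from CLP to ILC1/3P, adjusted p = 0.185).

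**Figure D2:**
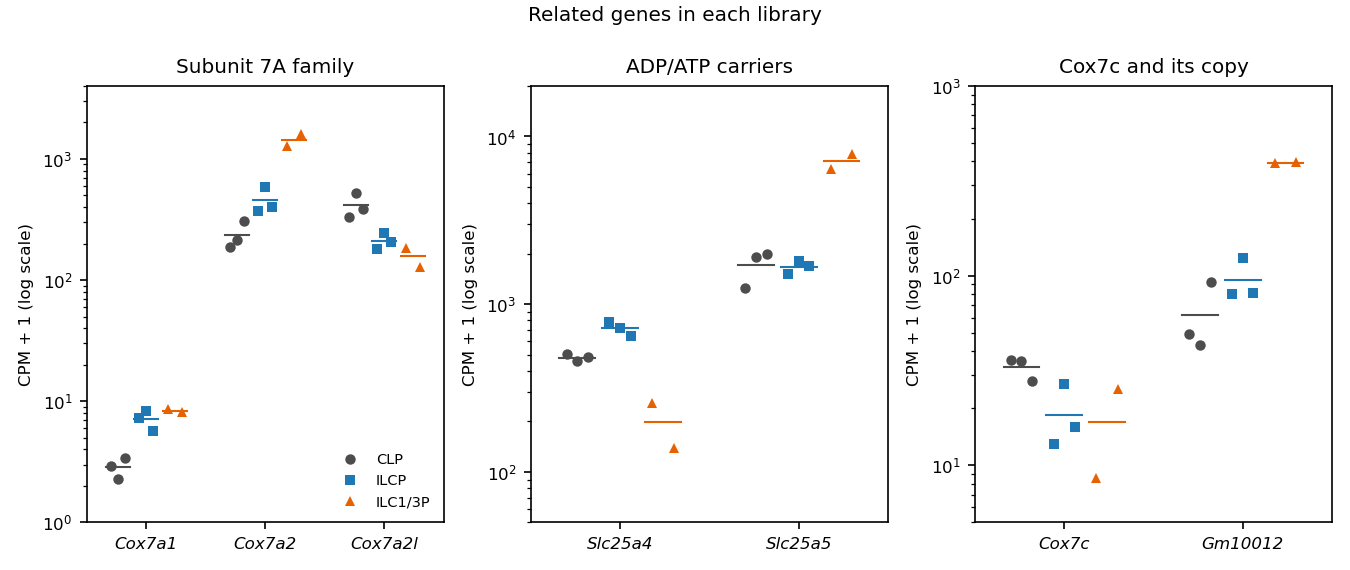
CPM + 1 of related genes on log axes, with 1 point per library, a line at each group mean and the genes along the x axis. Cox7a2 lies under Cox7a2l in CLP and above it in ILCP and ILC1/3P, Slc25a4 and Slc25a5 part in ILC1/3P, and the copy Gm10012 lies above Cox7c in every library.

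In ATP synthase the calls ran in both directions in the catalytic F1 head and only upward in the stator and the membrane part. Of the 5 genes of the F1 head, 1 rose (Atp5e) and 2 fell (Atp5a1 and Atp5b) against CLP. Of 4 stator genes 3 rose, and of 5 tested genes of the membrane part Fo 4 rose, with none lower. Against ILCP the counts were 1 higher and 1 lower for F1, 3 higher for the stator and 4 higher for Fo. The F1 median against CLP was 0.47 with TMM and -0.22 with total-count scaling, while those of the stator (1.48 and 0.80) and Fo (1.97 and 1.31) kept their sign.

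Atp5j (chr16:84827866-84835625) encodes coupling factor 6 of the stator and had the highest fold change of the complex against CLP. It stood at 160.1, 362 and 340.0 CPM in CLP, 397, 469 and 489 CPM in ILCP, and 1969 and 2359.7 CPM in ILC1/3P. ILC1/3P was 7.53-fold above CLP (2.91 ± 0.33, adjusted p = 0.000113) and 4.79-fold above ILCP (2.26 ± 0.32, adjusted p = 0.00123). Exons of Atp5j overlap those of Gabpa on the opposite strand, and whether counting used strand is not given in the sources used here. Gabpa itself stood at 46.2, 73 and 44.6 CPM in CLP and 60.4 and 26.7 CPM in ILC1/3P, far under Atp5j. The OSCP gene Atp5o, which joins stator and head, was 2.40-fold higher in ILC1/3P than in CLP (1.26 ± 0.27, adjusted p = 0.00518), and the stator b subunit gene Atp5f1 was not called (0.33 ± 0.28, adjusted p = 0.432).

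In the membrane part, Atp5k, the e subunit that holds ATP synthase dimers together, stood at 41.5, 47.3 and 80.3 CPM in CLP, 65.1, 101 and 69.5 CPM in ILCP, and 354 and 408 CPM in ILC1/3P. It was 6.76-fold higher than in CLP (2.76 ± 0.33, adjusted p = 0.000168) and 4.85-fold higher than in ILCP (2.28 ± 0.33, adjusted p = 0.00133). Atp5j2, subunit f, stood at 193, 240.4 and 368 CPM in CLP, 241, 369.9 and 291 CPM in ILCP, and 867 and 1568 CPM in ILC1/3P (2.19 ± 0.34 against CLP, adjusted p = 0.000810). The c ring, which turns as protons pass, is encoded by 3 genes with the same mature protein. Atp5g3 stood at 428, 515 and 599.2 CPM in CLP, 497, 661 and 689 CPM in ILCP, and 1321 and 1592 CPM in ILC1/3P (1.5 ± 0.25 against CLP, adjusted p = 0.00118). Atp5g1 stood at 59.4, 94.7 and 124 CPM in CLP, 80.6, 110.1 and 77.4 CPM in ILCP, and 302 and 303 CPM in ILC1/3P (1.71 ± 0.32 against CLP, adjusted p = 0.00259). The third gene, Atp5g2, had 49 counts in all 8 libraries together, with 0.736 to 2.08 CPM in CLP, 0.845 to 1.28 CPM in ILCP and none in ILC1/3P. Its annotated copy Gm10175 had 135 counts, with 3.95 and 2.36 CPM in the ILC1/3P libraries. Atp5g3 counts were 4.84 to 7.20 times those of Atp5g1 in CLP, 6.00 to 8.89 times in ILCP and 4.38 and 5.25 times in ILC1/3P, and these ranges overlapped.

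In the head, Atp5e (epsilon) stood at 177, 228 and 306 CPM in CLP, 249.6, 345 and 294 CPM in ILCP, and 910.1 and 1157 CPM in ILC1/3P (2.12 ± 0.28 against CLP, adjusted p = 0.000262). The alpha gene Atp5a1 instead stood at 958, 667 and 663 CPM in CLP, 820.1, 479 and 511 CPM in ILCP, and 325 and 243 CPM in ILC1/3P. It was 2.68-fold lower in ILC1/3P than in CLP (-1.42 ± 0.32, adjusted p = 0.00685) and 2.12-fold lower than in ILCP (-1.09 ± 0.31, adjusted p = 0.0348). The catalytic beta gene Atp5b went the same way, at 919, 591 and 675 CPM in CLP, 635, 447 and 553 CPM in ILCP, and 341 and 264 CPM in ILC1/3P. It was 2.41-fold lower than in CLP (-1.27 ± 0.28, adjusted p = 0.00695) and did not pass against ILCP (-0.85 ± 0.28, adjusted p = 0.0585). Without ILC1/3P replicate 2 the calls against CLP were lost, at adjusted p = 0.0643 for Atp5a1 and 0.064 for Atp5b, and the call of Atp5a1 against ILCP was lost without ILCP replicate 1 or 3 or without either ILC1/3P library. The rotor gene Atp5c1 (0.68 ± 0.29, adjusted p = 0.116) and the delta gene Atp5d (0.47 ± 0.23, adjusted p = 0.170) were not called. Of the related members, Atp5sl (named Dmac2 in GENCODE M21) was 4.13-fold lower in ILC1/3P than in CLP (-2.05 ± 0.58, adjusted p = 0.0248), with 52.3, 37.7 and 38.7 CPM in CLP, 35.6, 11.1 and 36.6 CPM in ILCP, and 10.4 CPM in both ILC1/3P libraries. That call was lost without CLP replicate 1 or either ILC1/3P library, and ILCP replicate 2 lay with the ILC1/3P libraries. Atp5s was not called (-0.19 ± 0.34 against CLP, adjusted p = 0.733).

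**Figure D3:**
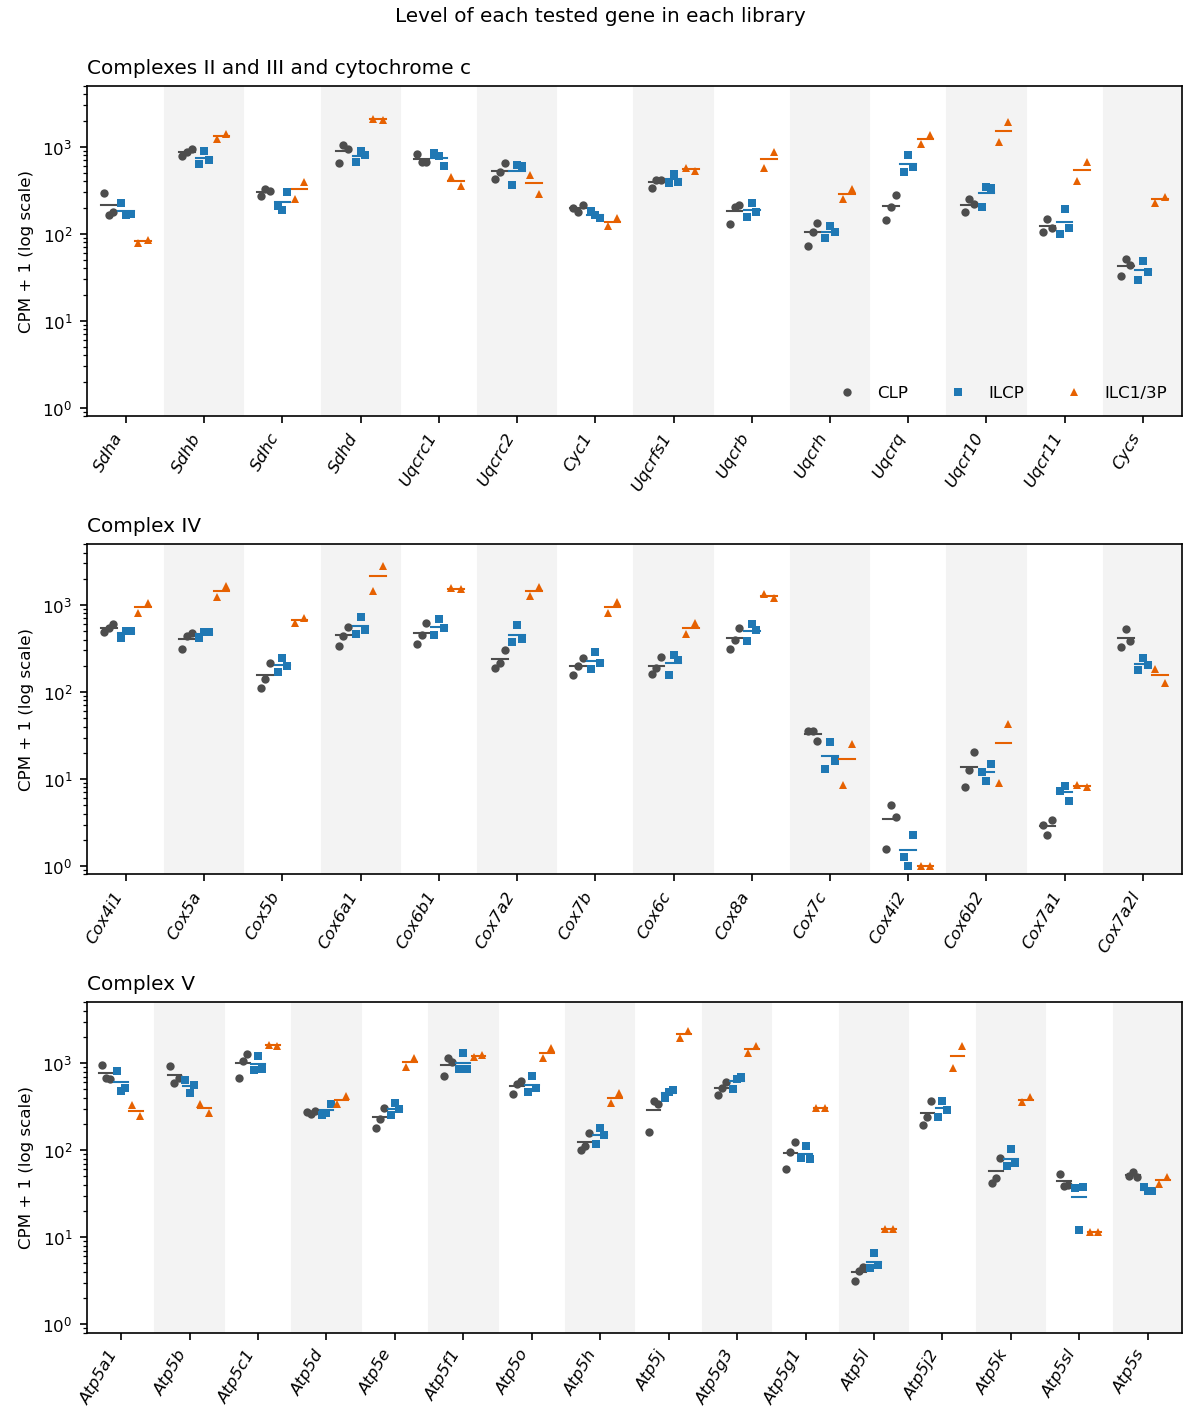
CPM + 1 of each tested member in each of the 8 libraries, on a log scale, in panels by complex, with a line at each group mean. The 2 ILC1/3P libraries stand above the others for most small subunits, and below them for Sdha, Uqcrc1, Atp5a1 and Atp5b.

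From CLP to ILCP the members' medians stayed near 0, at -0.21 for complex II, 0.05 for III, 0.19 for IV and 0.06 for V, beside 0.01 for all genes. Beyond Uqcrq and the 7A family, the smallest adjusted p in each complex did not pass. For complex II these were Sdhc (-0.38 ± 0.26, adjusted p = 0.498) and Sdhb (-0.22, adjusted p = 0.686), for complex III Uqcr10 (0.44 ± 0.28, adjusted p = 0.461), and for complex V Atp5j (0.65 ± 0.29, adjusted p = 0.235) and Atp5s (-0.57 ± 0.31, adjusted p = 0.35).

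Summed over its members with TMM scaling, each complex was at its highest in ILC1/3P, and without TMM factors this held for complexes IV and V but not for II and III, whose groups overlapped. Complex II summed to 2001, 2427 and 2365 CPM in CLP, 1723, 2142 and 1973 CPM in ILCP, and 3671 and 3908 CPM in ILC1/3P. Complex IV summed to 2778, 3591 and 4258 CPM in CLP, 3228, 4694 and 3845 CPM in ILCP, and 9766 and 12510 CPM in ILC1/3P. For complex III the sums were 2421 to 2909, 2839 to 3739, and 5037 and 6515 CPM, and for complex V 5243 to 6609, 5573 to 6693, and 11080 and 13110 CPM. Per 1000000 total counts, the sums in CLP, ILCP and ILC1/3P were 2463 to 2643, 2004 to 2244, and 2761 and 2620 for complex II, and 2924 to 3161, 3303 to 3918, and 3788 and 4368 for complex III. With TMM, the members of complex III with 600 or more coding bases went the other way, at 1775 to 1949 CPM in CLP, 1760 to 2048 CPM in ILCP, and 1616 and 1318 CPM in ILC1/3P. Those of complex II, at 1046 to 1108 CPM in CLP and 1315 and 1494 CPM in ILC1/3P, and of complex V, at 3807 to 4348 CPM and 4665 and 4851 CPM, were highest in ILC1/3P, though by less than the sums of all members. As a share of all counts before any scaling, all members took 1.54% to 1.76% in CLP, 1.56% to 1.81% in ILCP and 2.24% and 2.43% in ILC1/3P. Members under 600 coding bases took 0.713% to 0.954%, 0.824% to 1.05%, and 1.67% and 1.92%. The share of longer members together was lowest in ILC1/3P, from 0.756% to 0.823% in CLP and 0.663% to 0.765% in ILCP to 0.571% and 0.514% in ILC1/3P.

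**Figure D4:**
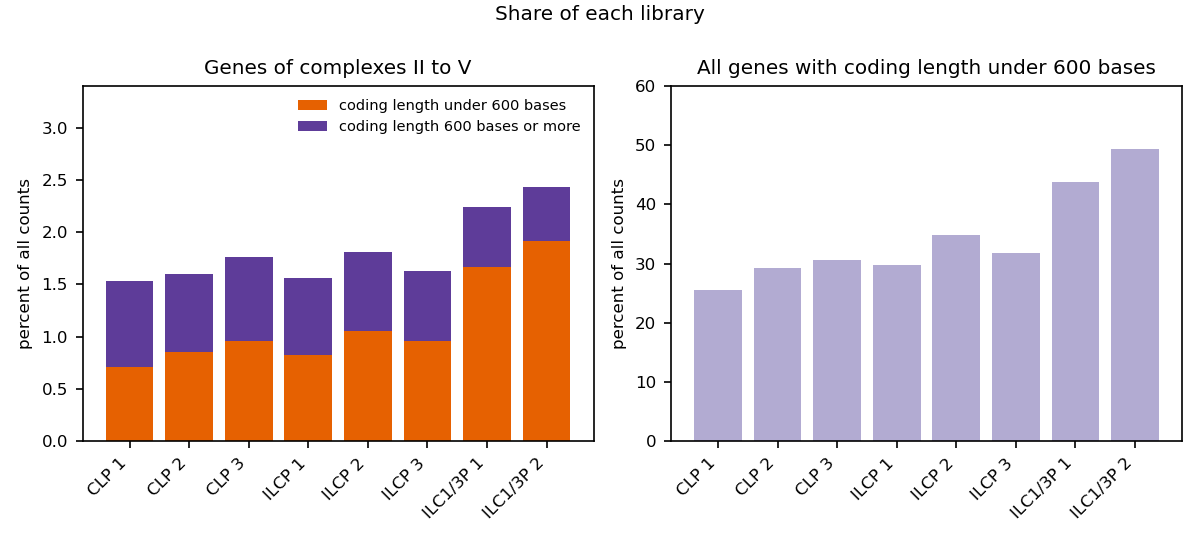
Percent of all counts in each library that fell on members with under 600 coding bases and, stacked on them, on longer members (left), and on all genes under 600 coding bases (right). The share of short members was highest in the 2 ILC1/3P libraries, that of long members lowest, and the share of all short genes rose in the same libraries.

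The direction of the members went with their coding length, and so did that of other genes. Against CLP, 23 of 31 tested members under 600 coding bases were higher and 1 lower, with a median log2 fold change of 1.83. Of all 1776 tested genes this short, 38.1% were higher and 8.05% lower, with a median of 0.85. Among the 13 longer members 1 (Atp5o) was higher and 5 lower, with a median of -0.48, beside 7.84% and 13.5% and a median of -0.40 for all longer genes. Short and abundant genes came closer still to the members: the 200 with under 600 coding bases and a mean CPM at or above the members' median had a median of 1.51 and 68.0% were higher, and all 13 members among them were higher. The other 187 had a median of 1.41, and 65.8% were higher. The mean was taken over all 8 libraries, so genes high in ILC1/3P could pass this cut through that group. Against ILCP, 22 of the 31 short members were higher and none lower (median 1.45, beside 0.69 for all short genes, of which 30.2% were higher), and of the 13 longer ones 2 were higher and 3 lower. Spearman's rho of log2 fold change with coding length was -0.697 over the 44 members against CLP and -0.158 over 11799 genes, a description across genes that share the same libraries.

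**Figure D5:**
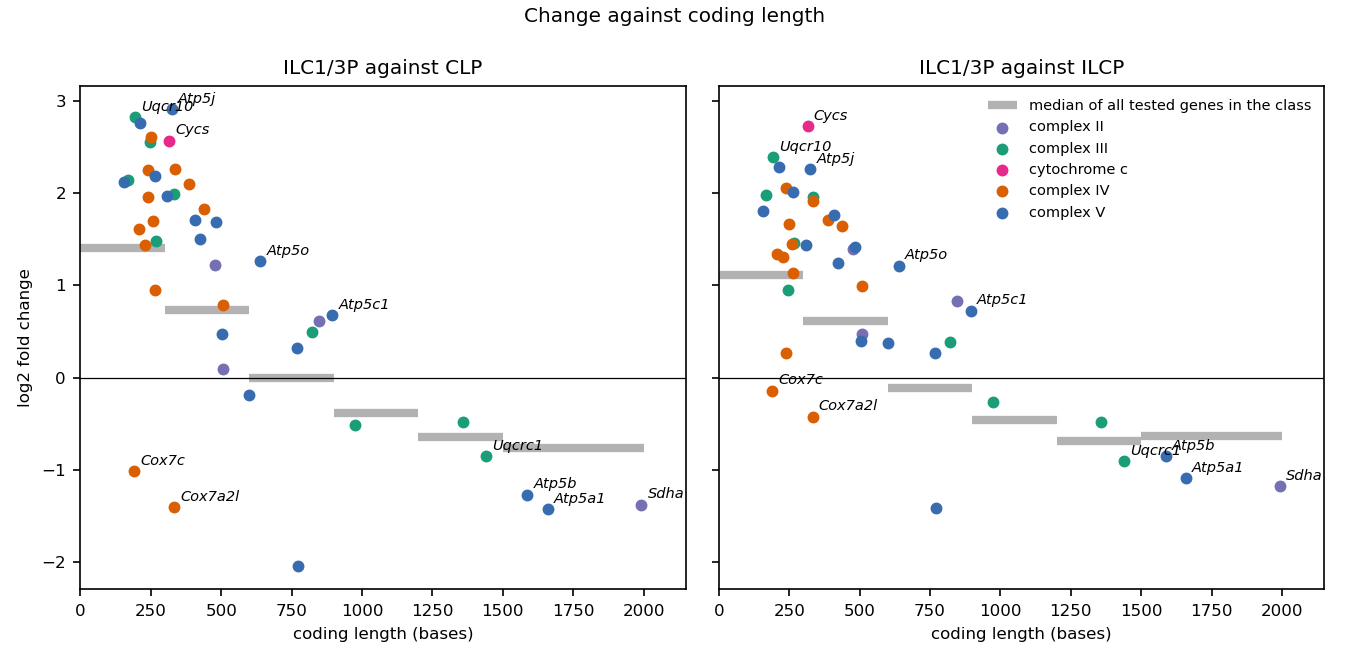
Log2 fold change of ILC1/3P against CLP (left) and against ILCP (right) by coding length in bases, for the tested members colored by complex, with grey bars at the median of all tested genes in each length class. Members under 600 bases lie mostly above the grey bars, and the 3 longest members, Sdha, Atp5a1 and Atp5b, lie below 0 and below the bar of their class. Cox4i2 was not plotted.

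A fit that took out each library's dependence on coding length over all genes, chosen after seeing the data, left 20 members higher and 3 lower against CLP, where 12.7% and 8.34% of all genes were called. Of these, 17 and 2 were among those called without it, and the median of the members was 0.58, beside 0.05 over all genes. Beside genes of like abundance the members did not stand out. The 22 members with a mean CPM at or above the members' median had a median of 0.75. The other 402 genes at that level had 0.73, and 49.8% of them were higher. This cut again used the mean over all 8 libraries. Atp5j (1.96), Cycs (1.55), Atp5k (1.36), Cox7a2 (1.35), Cox5b (1.32), Cox6a1 (1.30), Uqcrq (1.29), Uqcr10 (1.24), Cox5a (1.18) and Sdhd (0.68) were still higher on that scale. Uqcr11, Uqcrh, Cox4i1, Cox6b1, Cox6c, Cox8a and Atp5e were no longer called, though with the transcript-length fit Uqcr11, Cox6b1, Cox8a and Atp5e still were. The coding-length fit also called Sdhb (0.87, adjusted p = 0.0204), Uqcrfs1 (0.70, adjusted p = 0.0384) and Atp5c1 (0.99, adjusted p = 0.0361) higher and Cox7c lower (-2.70, adjusted p = 0.0104). Cox7a2l was lower by more than before (-2.34, adjusted p = 0.000313), and Atp5sl remained lower (-1.91, adjusted p = 0.0345). The large catalytic subunits were not called with it: Sdha had -0.57 (adjusted p = 0.128), Atp5a1 -0.54 (adjusted p = 0.124), Atp5b -0.37 (adjusted p = 0.211) and Uqcrc1 0.00 (adjusted p = 1). Against ILCP the same fit gave 18 higher and 1 lower, where 7.98% and 5.39% of all genes were called. The 22 abundant members then had a median of 0.64, beside 0.73 for the other 402 abundant genes. A difference between the cells and a length-dependent difference between the library preparations cannot be told apart in these 8 libraries.

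Reads of near-identical copies could be split between gene and copy, and how the authors counted such reads is not given in the sources used here. Of the 48 members, 10 have annotated copies at 90% identity or more. For Cox7c, the copy Gm10012 had 7337 counts beside 1200 for the gene (85.9% of their sum), at 48.3, 41.9 and 92.1 CPM in CLP, 79.5, 123 and 79.8 CPM in ILCP, and 391 and 395 CPM in ILC1/3P, whereas Cox7c itself stood at 34.8, 34.6 and 26.7 CPM, 11.9, 25.7 and 14.9 CPM, and 7.57 and 24.3 CPM. The gene alone was not called (-1.01 ± 0.61 against CLP, adjusted p = 0.256), and the sum of both was higher in ILC1/3P by 2.14 (adjusted p = 0.000398), so the direction of Cox7c is uncertain. For Atp5l, the g subunit of Fo, copies held 92.2% of the sum. Atp5l alone was at 2.15 to 3.56 CPM in CLP, 3.41 to 5.53 CPM in ILCP, and 11.5 and 11.6 CPM in ILC1/3P (1.97 ± 0.94, adjusted p = 0.154), and gene and copies together were higher by 2.45 (adjusted p = 0.000578). For Atp5h, stator subunit d, Gm10250 held 71.1% of the sum, and Atp5h passed the test without it (1.69 ± 0.29, adjusted p = 0.00143). With copies added, 26 members were higher and 6 lower against CLP, where 11.9% and 11.7% of all genes were called. Against ILCP the counts were 26 and 3, where 8.06% and 8.26% were called.

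Levels within a complex were compared as CPM per kilobase of the principal transcript, averaged over the libraries of a group. In complex II, Sdha was the lowest in all groups (72.7 in CLP, 63.3 in ILCP and 28.0 in ILC1/3P), and the highest was Sdhb in CLP (759) and ILCP (652) but Sdhd in ILC1/3P (1676). In complex III, Cyc1 was the lowest in CLP, ILCP and ILC1/3P (129, 109 and 90.3) and Uqcr10 the highest (498, 676 and 3535). The highest of complex IV was Cox6a1 (783, 991 and 3748). In complex V the highest changed between groups, with Atp5c1 in CLP (855), Atp5g3 in ILCP (857) and Atp5j in ILC1/3P (2917). Cycs stood at 13.4, 12.0 and 79.2. These orders depend on the length used. By the deposited FPKM the highest of complex II was Sdhd in all 3 groups (771, 671 and 1141 FPKM), that of complex III Uqcrfs1 in CLP and ILCP and Uqcr10 in ILC1/3P, and that of complex IV Cox6b1. In complex V it was Atp5c1 in CLP and ILCP and Atp5g3 in ILC1/3P. The lowest of complex III by FPKM was Uqcrh in CLP and ILCP and Uqcrc1 in ILC1/3P.

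Other genes of the same pathway moved with the members. Of 38 nuclear subunits of complex I, 29 were higher and 1 lower in ILC1/3P against CLP (median 1.68), with the smallest adjusted p for Ndufv3 (2.53), Ndufb7 (2.33), Ndufa5 (2.58) and Ndufa3 (2.11), and against ILCP 27 were higher and 2 lower. The lower ones were Ndufs1 in both comparisons (-1.99 against CLP, adjusted p = 0.00342) and Ndufv1 against ILCP, core subunits that carry electrons. Of the 13 protein genes of mitochondrial DNA, 6 were higher against CLP and 7 against ILCP with none lower (median against CLP 0.93), among them mt-Cytb of complex III (1.71), and mt-Atp8 (1.5) and mt-Atp6 (1.40) of complex V. Assembly factors of complexes II to V were higher in 17 and lower in 1 of 37 against CLP and 11 and 1 against ILCP, among them the copper chaperone gene Cox17 (3.37), with Cmc2 (3.36), Pet100 (2.44) and Coa6 (2.38). The lower one was Hccs, the enzyme that attaches heme to cytochrome c, in both comparisons (-1.46 ± 0.48 against CLP, adjusted p = 0.0482). Partners of ATP synthase outside the naming rule were higher in 4 and lower in 1 of 6 against CLP, and 3 and 1 against ILCP. Of these, Atpif1, the inhibitor of its ATP hydrolysis, stood at 346, 379 and 541 CPM in CLP, 432, 668 and 414 CPM in ILCP, and 1316 and 1327 CPM in ILC1/3P (1.65, adjusted p = 0.00157). With the coding-length fit the counts against CLP were 25 and 1 for complex I, 6 and 0 for the mitochondrial genes, 10 and 2 for assembly factors and 1 and 1 for the partners.

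The ADP/ATP carriers, which trade mitochondrial ATP for cytosolic ADP and are among those partners, moved apart. Slc25a5 stood at 1253, 1911 and 1992 CPM in CLP, 1503, 1812 and 1700.2 CPM in ILCP, and 6421 and 7856 CPM in ILC1/3P (2.06 ± 0.26 against CLP, adjusted p = 0.000208). Slc25a4 stood at 501, 456 and 481 CPM in CLP, 784, 724 and 647 CPM in ILCP, and 258 and 137 CPM in ILC1/3P (-1.28 ± 0.29 against CLP, adjusted p = 0.00751). Their coding sequences have the same length of 894 bases, and their ratio within a library was 2.50 to 4.19 in CLP, 1.92 to 2.63 in ILCP, and 24.9 and 57.3 in ILC1/3P. The ratio was chosen after its values were seen.

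Citric acid cycle genes, which supply complex II, did not follow: of 13, none was higher and 4 were lower against CLP (median -0.58), namely Dld (-1.67), Fh1 (-0.93), Idh3g (-0.79) and Idh3b (-0.76), and Dld, Idh3b and Sucla2 were lower against ILCP. With the coding-length fit 2 were higher and none lower against CLP. Among 13 genes of known regulators, Myc was the only one called against CLP. It fell from 283, 223 and 271 CPM in CLP to 35.8, 48.4 and 33.5 CPM in ILCP (-2.72, adjusted p = 6.8e-05) and 13.5 and 16.8 CPM in ILC1/3P (-4.10 against CLP, adjusted p = 1.4e-05, and -1.38 against ILCP, adjusted p = 0.00979). Of 79 cytosolic ribosomal protein genes, which are also short, 28 were higher and 2 lower against CLP (median 0.73) and 40 and 0 against ILCP, and with the coding-length fit 9 and 2 against CLP. Of 22 cell division genes, 8 were higher and 1 lower against CLP (median 0.88) and 10 and 0 against ILCP, with Cdk1 at 33.4, 31.3 and 39.9 CPM in CLP, 42.8, 26.1 and 48.4 CPM in ILCP, and 962 and 768 CPM in ILC1/3P (4.63 against CLP). With the coding-length fit 11 were higher and none lower. From CLP to ILCP, the calls in these 8 lists were Ndufv3 of complex I (1.08 ± 0.27, adjusted p = 0.0329), Myc, and the replication genes Mcm2 (-1.15) and Mcm6 (-1.02), both lower.

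Where the promoter held the ETS letters, 10 of the 12 members tested were higher in ILC1/3P against CLP and none lower, and where it did not, 10 of 23 were higher and 5 lower. For the NRF1 core letters the counts were 4 higher and 1 lower of 7 with them, and 16 and 4 of 28 without. Of the 12 with ETS letters, only Sdhb has 600 or more coding bases. Those without include longer members such as Sdha, Uqcrc1, Atp5b and Atp5sl. Against CLP, 11.8% of all tested genes were higher, and 38.1% of those under 600 coding bases. These are counts over a few genes and were not tested, and neither was the part of coding length in them.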

How the data were processed

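Bulk RNA-seq was made from 8 libraries of sorted cells, with SMARTer cDNA prepared in the lysate and amplified by PCR, per the labels' protocols. Sorted purity was above 90% per the labels. The authors deposited raw read counts per gene and FPKM for each library. The build is mm10 per the submitters' processing notes, and the aligner, counter and annotation, and whether reads were counted by strand, were not given in the sources used here. All libraries carry the same batch date.

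The members, gene lists, alternatives and naming rule were chosen with earlier results of these data known. Counts were fitted over all 3 groups with edgeR 4.0.16 in R 4.3.3 (filterByExpr, TMM, quasi-likelihood test, no covariates), with Benjamini-Hochberg adjustment over 13436 genes and a threshold of 0.05. Fold changes are log2 with SE, and values per library are TMM-adjusted CPM. Any member may be named. Full statistics go to the smallest adjusted p in each complex, to members called against the majority and to paralogs, and up to 4 genes are named per other list. The scripts were tested on simulated data. Without molecular identifiers, floors (3 counts) cover counting error only.

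Alternatives used RLE or total-count scaling, no filter, DESeq2 1.42.0, limma 3.58.1 on log2(deposited FPKM + 1), 2 groups only, a replicate block, each library left out, and, added after seeing the data, offsets for coding or transcript length and counts with copies added. No genome was used, so copies were sought among GENCODE M21 transcripts with BLAST 2.17.0 and lengths come from their principal transcripts. The lengths implied by FPKM against counts were longer than these for most members. They were shorter for some, such as Cyc1 (1194 against 1520 bases) and Cox6b1 (505 against 618 bases). Levels are given per kilobase of the principal transcripts.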

Additional observations from a re-analysis of the deposited data

How the results depend on the processing

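Across 18 settings, 15 planned and 3 added after seeing the data, the number of members higher in ILC1/3P against CLP was 20 to 26. Leaving out each library in turn gave 23 to 24 higher and 1 to 6 lower, the 1 being without ILC1/3P replicate 2, when a lone library is assumed to vary like the other groups. The share of all genes called higher against CLP was 7.04% with total-count scaling and 15.2% with DESeq2. Against CLP, 6 were lower as reported, 11 with FPKM, 3 with the coding-length offset and 2 with the transcript-length offset. Of all genes, 11.7%, 23.7%, 8.34% and 7.74% were lower in these settings. For ILC1/3P against ILCP those shares were 8.25%, 17.7%, 5.39% and 4.61%, and 15.9% with total-count scaling. Against ILCP, 24 were higher and leaving out libraries gave 19 to 25. As reported 3 were lower, and 8 were with total-count scaling, 7 with FPKM, 1 with only 2 groups fitted, 1 with the coding-length offset, 0 with the transcript-length offset and 0 to 4 with libraries left out. From CLP to ILCP, 1 was higher as reported, 2 (Cox7a2 added) with total-count scaling, without the filter, with DESeq2, with the replicate block and with either length offset, and 3 with FPKM, and leaving out libraries gave 1 to 2 higher and 0 to 1 lower. The replicate block gave 2 higher and 0 lower from CLP to ILCP, 24 and 5 against CLP, and 25 and 4 against ILCP. Of all genes it called 3.31% and 2.2%, 10.4% and 9.17%, and 7.03% and 6.02%. Deviations of same-numbered libraries from their group means correlated at -0.033 to 0.073. In groups of 2 or 3 libraries such deviations depend on each other. These values therefore cannot decide whether replicate numbers pair the libraries. The median of complex II against CLP reversed from 0.35 to -0.33 with total-count scaling and -0.33 with FPKM. Cox4i1 reversed with the transcript-length offset (-0.021, adjusted p = 0.961), and Cox7c reversed with copies added (2.14 against CLP and 1.87 against ILCP, from -1.01 and -0.14), which follows from the copy's own counts. The cause of the other changes was not tested. Cox4i2 and Cox7a1 had few counts, at 56 and 246 over all 8 libraries. Cox6b2 had 721, and its counts in ILC1/3P replicates 1 and 2 differed, at 48 and 176. Atp5l and Atp5g2 also had few counts, but their copies held 92.2% and 73.4% of the summed counts. The part of depth in these was not tested.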

Other observations

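Genes beside Uqcrq also differed between ILCP and CLP. Within 150 kilobases of Uqcrq, 6 other genes were tested. Aff4, a part of the super elongation complex, stood at 36.0, 45.8 and 43.0 CPM in CLP, 114, 127 and 106 CPM in ILCP, and 26.0 and 35.7 CPM in ILC1/3P, higher in ILCP than in CLP (log2 1.48 ± 0.28, adjusted p = 0.00686) and lower in ILC1/3P than in ILCP (-1.91, adjusted p = 0.00309). Sept8, a septin gene, stood at 0, 1.66 and 2.97 CPM in CLP, 31.4, 30.5 and 26.0 CPM in ILCP, and 33.9 and 34.5 CPM in ILC1/3P (4.27 ± 0.93 from CLP to ILCP, adjusted p = 0.0161). Zcchc10 did not pass from CLP to ILCP (0.74, adjusted p = 0.137) and was higher in ILC1/3P than in CLP (1.57, adjusted p = 0.00255), and Hspa4, Gdf9 and Kif3a were not called. Beside Cox7a2l, the tested neighbour Eml4 was not called (0.22, adjusted p = 0.827). These genes were looked at after the values of Uqcrq and Cox7a2l were seen, and nothing further was tested.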
